A study of Homo sapiens with 6 samples.

Results

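The genes described here encode proteins of the cytosolic ribosome or relatives of them. They were chosen by name from the table of MDAMB468 cells: protein-coding genes whose symbol begins with RPL or RPS and a number, together with RPLP0, RPLP1, RPLP2 and RPSA, without the RPS6 kinases and without pseudogenes. This rule found 83 genes among the 10487 in the table, of which 51 belong to the large subunit and 32 to the small subunit. Of the 83, 77 encode the standard proteins of the ribosome. The other 6 are named as copies or relatives of one of them (RPL7L1, RPL22L1, RPL26L1, RPL36AL, RPL39L and RPS27L). They are called copies here, and how alike the proteins are was not checked. Another 7 of the 90 annotated genes with such names (RPL3L, RPL10L, RPS4Y1, RPS4Y2 and the readthrough genes RPL17-C18orf32, RPL36A-HNRNPH2 and RPS10-NUDT3) had no row in the table.

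MDAMB468 is a triple-negative breast cancer cell line. Untreated control cells with wild-type genotype (CTR, n = 3) were compared with MDAMB468-VHP-IGFBP2 cells (VHP, n = 3), which are also untreated and in which a catalytically dead Cas9 fused to an activator, and a guide directed to IGFBP2, drive the endogenous IGFBP2 gene. The VHP cells were made by lentiviral transduction, drug selection and sorting for the fluorescent reporters. Whether the control cells carried the activator or went through the same selection is not given in the sources used here, so IGFBP2 itself and the making of the cells cannot be told apart. The 3 libraries of each group are biological replicates, and all 6 were made with a 3′ end protocol (QuantSeq) that gives about 1 tag for each transcript. Levels are therefore given in CPM, reads brought to a common library size by the authors' scaling and not divided by gene length, and levels of different genes are compared on that per-transcript scale.

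The libraries held 2497353 to 4579587 reads on the listed genes. IGFBP2 was at 93.5, 87.3 and 136 CPM in the CTR libraries and at 566, 1176 and 498 CPM in the VHP libraries (log2 fold change 2.73, SE 0.33, adjusted p = 0.0148 by limma). All 10 genes searched for as markers of this epithelial line were listed. They include VIM, a mesenchymal gene, which was at 92.6 to 712 CPM over the 6 libraries. Of 3 receptor genes, ESR1 and PGR were not listed, while ERBB2 was, at 15.8 to 37.0 CPM. Of 9 markers of immune, stromal and endothelial cells only COL1A1 was listed, at 9.36 to 27.5 CPM.

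A ribosome is built from 2 subunits, each a scaffold of ribosomal RNA dressed with proteins that are mostly present as a single copy. The small subunit decodes the message and the large subunit forms the peptide bond. Because the proteins are mostly needed in equal amounts, their messages share regulatory features. Most begin with a C followed by a run of pyrimidines, the 5′ terminal oligopyrimidine tract. Through it their translation follows mTOR signalling, the growth pathway that lies downstream of the insulin-like growth factor receptors. IGFBP2 is a secreted protein that binds the insulin-like growth factors.

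The start sites of the genes on which the results turn are shown here. The tract is a sequence that most of these genes share and that some copies and some standard genes lack. Each line gives 30 bases before the RefSeq start and the first 20 bases of the transcript, 5′ to 3′ on the gene's own strand (GRCh38.p14, the build family of the authors' alignment), with the pyrimidine run in capitals. A run was counted where a C within 5 letters of the start led at least 5 consecutive C or T letters, and where a gene had several RefSeq starts a window with a run was preferred.
RPL22L1 (chr3:170870176-170870225, minus strand): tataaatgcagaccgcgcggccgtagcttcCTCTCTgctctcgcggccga
RPL35A (chr3:197950160-197950209, plus strand): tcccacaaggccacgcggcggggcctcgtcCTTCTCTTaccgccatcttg
RPL3 (chr22:39319604-39319653, minus strand): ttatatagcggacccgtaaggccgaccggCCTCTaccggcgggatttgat
RPS6 (chr9:19380217-19380266, minus strand): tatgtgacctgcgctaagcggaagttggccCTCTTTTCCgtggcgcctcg
RPL36A (chrX:101390981-101391030, plus strand): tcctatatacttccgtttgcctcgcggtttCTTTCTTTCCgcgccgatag
RPS27A (chr2:55232658-55232707, plus strand): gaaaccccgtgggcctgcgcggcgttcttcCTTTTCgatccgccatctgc
RPLP0 (chr12:120201092-120201141, minus strand): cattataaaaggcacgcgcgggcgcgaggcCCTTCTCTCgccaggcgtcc
RPL22 (chr1:6199576-6199625, minus strand): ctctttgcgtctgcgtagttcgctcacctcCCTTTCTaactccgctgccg
RPL7L1 (chr6:42879586-42879635, plus strand): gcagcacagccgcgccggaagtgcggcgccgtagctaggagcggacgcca
RPS27L (chr15:63157458-63157507, minus strand): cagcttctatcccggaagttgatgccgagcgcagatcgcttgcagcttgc
RPL26L1 (chr5:172958699-172958748, plus strand): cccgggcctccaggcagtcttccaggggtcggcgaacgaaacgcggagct

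RefSeq promoter entries were at hand for 67 of the 83 genes, and 55 of the 67 (82.1%) held such a run, against 25.2% of the 27305 genes of the whole reference table and 29.8% of the 8551 listed genes with an entry. Among the standard proteins 53 of 62 had a run. RPS29, RPS15, RPL9 and RPS4X were among the standard genes without one. Among the copies 2 of 5 had a run, RPL22L1 and RPL36AL, while RPL7L1, RPL26L1 and RPS27L had none in this window. In RPL36AL, whose window is not shown, the run began before the RefSeq start (offset -4 letters). The median log2 fold change was -0.05 over the 55 genes with a run and 0.04 over the 12 without, a description of the RNA level that does not measure translation.

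The ribosomal protein genes were among the most abundant transcripts of MDAMB468 cells. Of the 83, 44 were within the 100 highest genes of the control cells and 74 within the 500 highest. The 77 standard genes spanned 206 to 9436 CPM in the control mean, a 45.8-fold range, with a median of 1189 CPM beside 30.7 CPM over all listed genes. Their proteins are mostly used in equal numbers, but the reads were not equal. The 8 highest genes alone took 31.8% of all ribosomal protein reads in the control libraries. RPS27A, a small subunit protein made as a fusion with ubiquitin, was the highest at 9713, 9408 and 9187 CPM in CTR and 8879, 9230 and 10596 CPM in VHP. RPS24, a small subunit protein mutated in some patients with Diamond-Blackfan anaemia, was at 6509, 6441 and 6405 CPM in CTR and 6102, 6615 and 7630 CPM in VHP. The 2 ranges overlapped for both genes, and the VHP libraries were more spread than the CTR libraries. RPS12 followed with a CTR mean of 5772 ± 111 CPM (SD, n = 3) and a VHP mean of 5723 ± 703. RPL37A was at 5096 ± 171 and 4572 ± 540 CPM, RPL27A at 4606 ± 337 and 4790 ± 370, and RPS19, the gene most often mutated in Diamond-Blackfan anaemia, at 4162 ± 276 and 4135 ± 545. RPS4X was at 3939 ± 427 and 4259 ± 792 CPM, and RPS3, a small subunit protein at the entry of the message channel, at 3888 ± 320 and 4391 ± 555. Neighbours in this order from RPS19 to RPS3 did not differ beyond their spread.

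The lowest standard gene was RPS26, at 206 ± 37.9 CPM in CTR and 203 ± 25.4 in VHP. The medians of the 46 large subunit and the 31 small subunit standard genes were 1158 and 1275 CPM. The order of the 83 genes was nearly the same in both groups (Pearson r = 0.993 between the log2 group means, Spearman rho = 0.987, across 83 genes that share the same libraries). Levels between genes carry a further limit, since 78 of the 83 have annotated pseudogenes, 1600 in all, of which 1 was listed, and how reads matching several places were treated is not given in the sources used here. RPL36A, RPL17 and RPS10 also overlap readthrough genes, whose reads could be split or dropped.

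The summed output of the ribosomal protein genes did not separate the groups. They took 13.5%, 14.2% and 12.8% of the reads in the CTR libraries and 12.6%, 12.8% and 14.4% in the VHP libraries. The lowest and the highest of the 6 values were both VHP libraries, so that the VHP range enclosed the CTR range. The means were 13.5% ± 0.692 and 13.3% ± 0.963 (SD, n = 3), a difference of -0.224 percentage points that was smaller than the spread within either group. In bulk RNA, fewer cells with a transcript and less of it per cell cannot be told apart, and a share does not measure the total RNA of a cell. Counting error was far smaller than this spread, at most ±0.0414 points in a library (95% Wilson interval, which covers counting error only). The sign of the difference depended on single libraries: it was -0.777 points without VHP replicate 3, 0.111 without CTR replicate 2 and 0.101 without VHP replicate 1.

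The subunits did not separate the groups either. The large subunit took 6.74%, 7.11% and 6.31% of the reads in CTR and 6.32%, 6.29% and 6.91% in VHP. The small subunit took 6.79%, 7.05% and 6.47% in CTR and 6.29%, 6.52% and 7.45% in VHP. The groups overlapped for both, and the highest library was CTR replicate 2 for the large subunit and VHP replicate 3 for the small subunit. The difference between the group means was -0.211 percentage points for the large and -0.0126 for the small subunit. The former stayed below 0 with any 1 library left out (-0.417 to -0.0159) and the latter did not (-0.362 to 0.218). The ratio of small to large subunit reads was 1.01, 0.991 and 1.03 in CTR and 0.997, 1.04 and 1.08 in VHP, again with overlap. Transcripts encoded by the mitochondrial genome, the other very abundant group, took 7.31 to 8.55% of the reads in CTR and 7.20 to 8.29% in VHP.

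**Figure D1:**
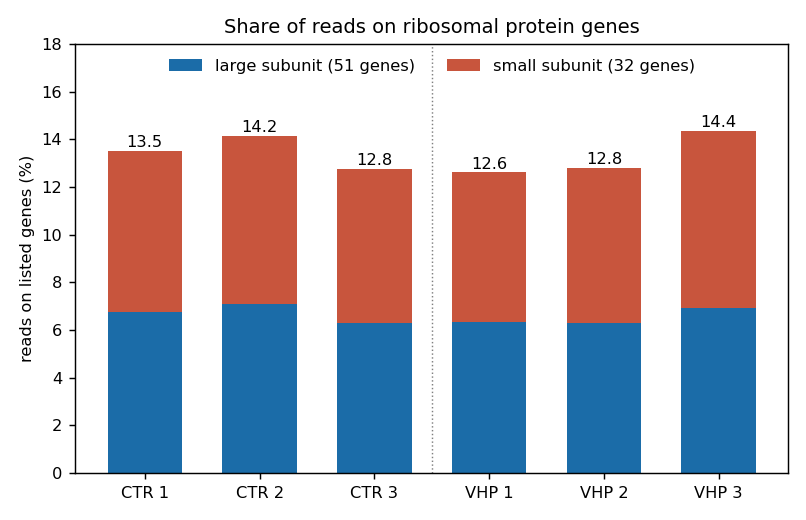
Bars give the percentage of the reads on listed genes that fell on ribosomal protein genes in each control (CTR) and MDAMB468-VHP-IGFBP2 (VHP) library, stacked by subunit, with the total printed above. The totals run from 12.6% to 14.4%, and both of these extremes are VHP libraries.

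None of the 83 genes passed the test between VHP and CTR cells. Limma, fitted to the log2(CPM + 1) values of all 10487 genes with Benjamini-Hochberg adjustment at 0.05, called 66 genes (0.629%) in the whole table and 0 ribosomal protein genes. The smallest adjusted p among the 83 was 0.197, for RPL22L1. The authors, who used edgeR, reported many more genes past their own threshold than limma called here, and edgeR was not run. Limma with a mean-variance trend, which called 1.53% of all genes, and limma voom on the recovered reads, which called 1.34%, also called 0 of the 83. At an unadjusted p under 0.05 limma without the trend held 3 of the 83 (RPL22L1, RPL35A and RPS6, all lower in VHP) against 13% of all genes, and the fit with the trend and the voom fit each held 6, where 13.4% and 13.3% of all genes were under that p.

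The median log2 fold change was -0.04 over the 83 genes and 0.00 over all genes, with 52 of the 83 below 0. The interquartile range ran from -0.15 to 0.06 for the 83 genes and from -0.22 to 0.21 for all genes. The median size of the change regardless of direction was 0.10 for the ribosomal protein genes, 0.15 for the 792 other genes with a mean of 200 CPM or more, and 0.21 for all genes. The 95% interval of the change lay wholly within 1.5-fold in either direction for 55 of the 83 genes. The same held for 348 of the 792 other genes at 200 CPM or more and for 23.9% of all genes. Within 2-fold it lay for 82 of the 83 (77.3% of all genes). The shares of all genes are not matched for level, since the median gene was far less abundant than the ribosomal protein genes. RPL22L1 was the exception to the latter. The half-width of the intervals of the 83 genes ranged from 0.38 to 0.59 on the log2 scale. The intervals are not adjusted for the number of genes, and a call at the adjusted threshold took a larger change than the half-width. RPL22L1, at -0.74, was not called, so changes of that size and below could be missed for single genes.

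**Figure D2:**
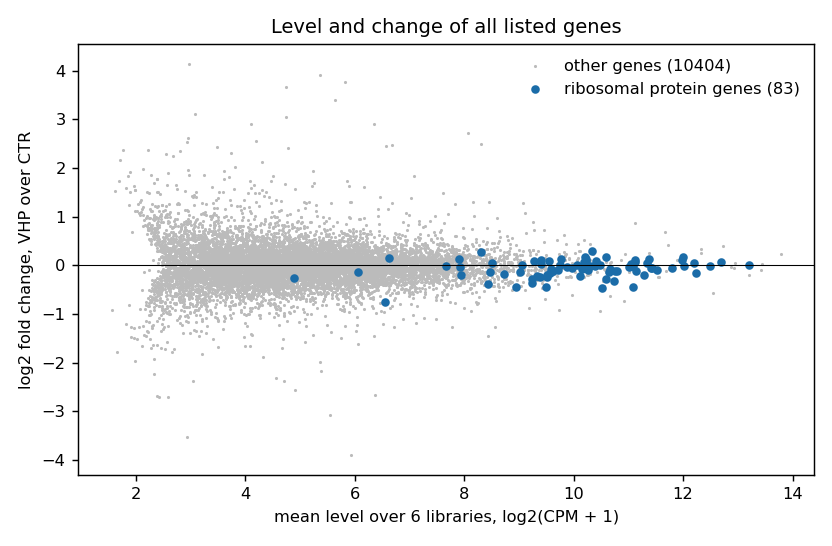
Each point is a gene, with its mean log2(CPM + 1) over the 6 libraries on the horizontal axis and its log2 fold change (VHP over CTR) on the vertical axis. The 83 ribosomal protein genes (blue) lie at the abundant end and between -0.74 and 0.31, while the 10404 other genes (grey) reach from -3.90 to 4.15.

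Groups that did not overlap were seen for 10 genes. RPS20, RPS6, RPS3A, RPS28, RPL22L1, RPL39L, RPL35A, RPL10A and RPL41 were lower in all 3 VHP libraries than in any CTR library, 9 of 83 where 8.61% of all genes were. RPL15 alone was higher in all 3, 1 of 83 where 9.43% of all genes were. For RPL15, a large subunit protein, the values were 1127, 1178 and 1142 CPM in CTR and 1201, 1194 and 1382 CPM in VHP, with a log2 fold change of 0.13. For RPS20, a small subunit protein, they were 1269, 1323 and 1226 CPM against 1174, 1196 and 1214 CPM, with a log2 fold change of -0.09. Such separations were narrow for both.

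**Figure D3:**
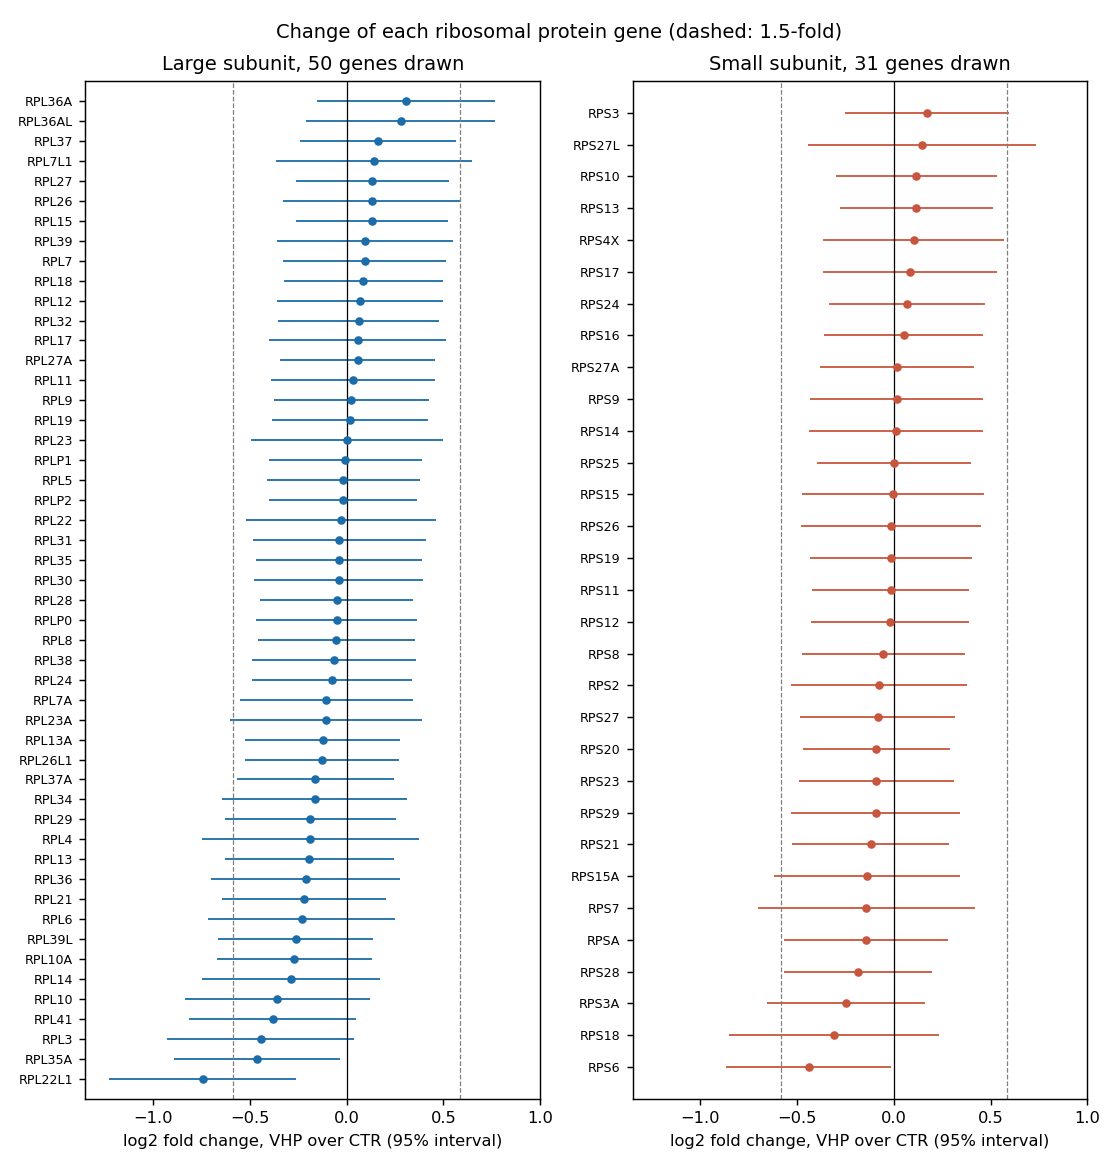
Points give the log2 fold change of each ribosomal protein gene (VHP over CTR) and lines its 95% interval from the limma fit, by subunit and ordered by value. Dashed lines mark 1.5-fold, and 81 of the 83 genes are drawn. Only the lines of RPL22L1, RPL35A and RPS6 lie wholly to one side of 0, and none passed the adjusted threshold.

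RPL22L1 gave the lowest estimate. It encodes a close copy of the large subunit protein RPL22, which is known to restrain it. RPL22L1 was at 118, 126 and 119 CPM in CTR and 82.3, 54.5 and 82.5 CPM in VHP, so that the highest VHP library stood well below the lowest CTR library. The log2 fold change was -0.74 (SE 0.21, 95% interval -1.23 to -0.26) with an adjusted p of 0.197 by limma, and over 17 other ways of fitting the data the adjusted p ranged from 0.0638 to 0.4997. RPL35A, a large subunit protein, followed with 1571, 1693 and 1892 CPM in CTR and 1204, 1115 and 1431 CPM in VHP. The groups were apart, with a log2 fold change of -0.46 (SE 0.19, adjusted p = 0.340 by limma).

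RPS6, the small subunit protein that S6 kinase phosphorylates downstream of mTOR, was at 2616, 2834 and 2156 CPM in CTR and 1819, 1743 and 2017 CPM in VHP. The groups did not overlap, and the log2 fold change was -0.44 (SE 0.19, adjusted p = 0.369 by limma). RPL3, a large subunit protein next to the peptidyl transferase centre, was at 913, 923 and 701 CPM in CTR and 577, 534 and 758 CPM in VHP, where VHP replicate 3 lay above CTR replicate 3, and its log2 fold change was -0.45 (adjusted p = 0.421 by limma). RPL41, one of the shortest proteins known, was at 428, 412 and 349 CPM in CTR and 332, 319 and 262 CPM in VHP without overlap, with a log2 fold change of -0.38 (adjusted p = 0.437 by limma).

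The highest estimates were smaller. RPL36A, a large subunit protein, was at 983, 1229 and 1290 CPM in CTR and 1228, 1444 and 1658 CPM in VHP, with a log2 fold change of 0.31 (SE 0.20, adjusted p = 0.577 by limma). Its copy RPL36AL was at 377, 242 and 262 CPM in CTR and 345, 331 and 376 CPM in VHP, with a log2 fold change of 0.28 (adjusted p = 0.641 by limma). CTR replicate 1 was the lowest library for RPL36A and the highest for RPL36AL. RPS3, RPL37 and RPS27L were also among the 6 highest, with log2 fold changes of 0.17, 0.16 and 0.14, adjusted p-values from 0.759 to 0.867 by limma and overlapping groups in each.

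The proteins of the stalk, the large subunit arm that recruits the elongation factors, had estimates close to 0. RPLP0 was at 2996, 2950 and 2392 CPM in CTR and 2570, 2604 and 2835 CPM in VHP, with a log2 fold change of -0.05. RPLP1 was at 2189, 2331 and 2042 CPM against 2160, 2332 and 2035 CPM, with a log2 fold change of -0.01. RPLP2 was at 1340, 1390 and 1323 CPM against 1309, 1305 and 1391 CPM, with a log2 fold change of -0.02 and a 95% interval from -0.40 to 0.36. The groups overlapped for all 3 genes, and the interval of each lay within 1.5-fold.

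RPL5, RPL11 and RPL23 can bind MDM2 when they are free of the ribosome and thereby stabilise p53. RPL5 was at 2169, 2317 and 1990 CPM in CTR and 2050, 2059 and 2286 CPM in VHP, with a log2 fold change of -0.02 (95% interval -0.41 to 0.38). RPL11 was at 2356, 1993 and 1983 CPM against 2072, 1959 and 2453 CPM, with a log2 fold change of 0.03. RPL23 was at 1666, 1405 and 1021 CPM against 1407, 1247 and 1370 CPM, with a log2 fold change of 0.00. All 3 pairs of groups overlapped, and RPL23 varied more within CTR than between the groups. RPSA, a small subunit protein also known as the laminin receptor, was at 425, 371 and 323 CPM in CTR and 355, 313 and 340 CPM in VHP, with overlap and a log2 fold change of -0.14.

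The 6 copies were each less abundant than the gene they resemble in every library. RPL39L was the lowest of all 83, at 31.3, 34.2 and 29.5 CPM in CTR and 24.6, 25.5 and 28.6 CPM in VHP, and stood at 0.0439 ± 0.00313 of the level of RPL39 in CTR. RPL26L1 was at 0.0271 ± 0.00488 of RPL26, RPS27L, a target of p53, at 0.117 ± 0.0143 of RPS27, RPL36AL at 0.261 ± 0.106 of RPL36A, RPL22L1 at 0.503 ± 0.111 of RPL22, and RPL7L1 at 0.387 ± 0.0788 of RPL7 in the CTR libraries (SD, n = 3). RPS27L was the most uneven of the copies, with 94.7, 151 and 75.9 CPM in the VHP libraries.

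A ratio of a copy to its relative within a library does not depend on the scaling. For RPL22L1 to RPL22 the ratio was 0.414, 0.468 and 0.628 in CTR and 0.314, 0.261 and 0.331 in VHP, lower in 3 of 3 VHP libraries, with a difference of -0.72 on the log2 scale. RPL22 itself was at 285, 269 and 190 CPM in CTR and 262, 209 and 249 CPM in VHP with overlapping groups. An exact two-sided permutation test gave p = 0.1, the smallest that 3 against 3 libraries allow, and 0.6 after Benjamini-Hochberg adjustment over the 6 pairs. None of the other 5 pairs separated the groups, with log2 ratio differences from -0.37 for RPL39L to 0.23 for RPS27L.

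The libraries differed from one another within the groups in a way that many of the genes shared. Relative to each gene's mean over the 6 libraries, the median ribosomal protein gene stood at 0.08, 0.07 and -0.04 (log2) in the CTR libraries and at -0.06, -0.12 and 0.10 in the VHP libraries, while the same median over all genes stayed between 0.00 and 0.02. In VHP replicate 3, 56 of the 83 genes were above their mean, and in VHP replicates 1 and 2 only 20 and 21 were. Leaving out VHP replicate 3 moved the median log2 fold change of the 83 genes from -0.04 to -0.11, and leaving out VHP replicate 2 moved it to -0.01. The small subunit genes spread most between the VHP libraries, with medians of -0.07, -0.10 and 0.16.

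**Figure D4:**
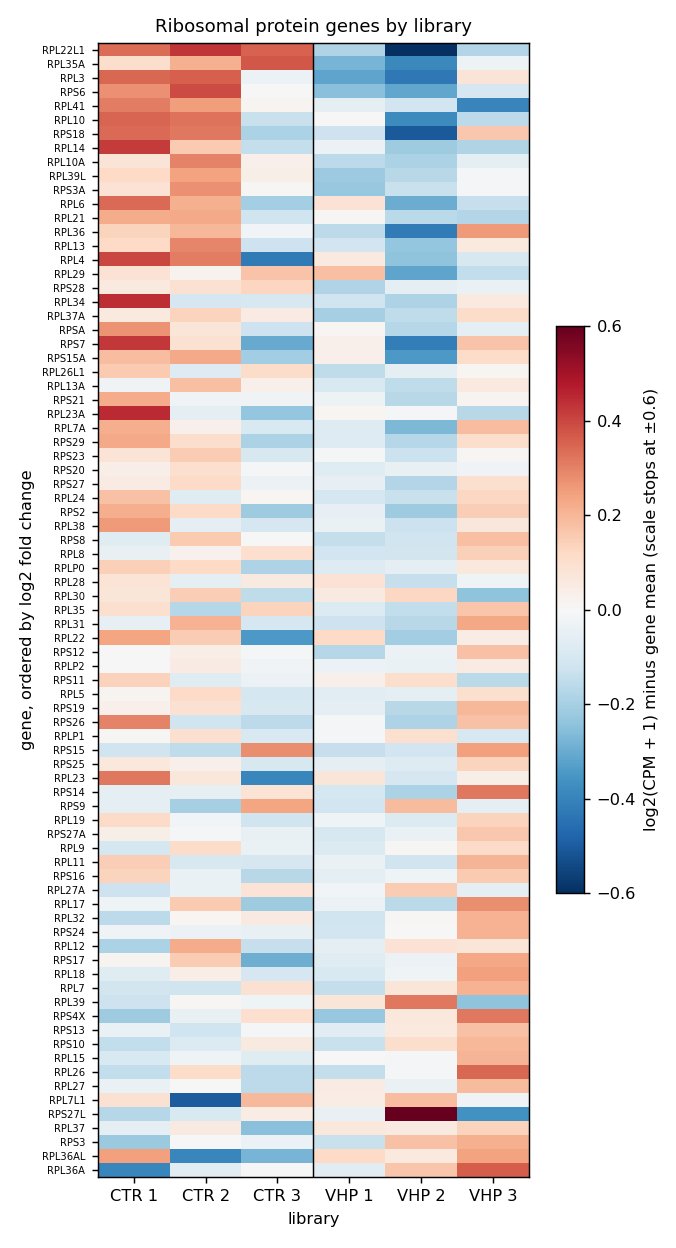
Colours give the log2(CPM + 1) value of each ribosomal protein gene in each library minus the gene's mean over the 6 libraries, from blue (below) to red (above), with 81 of the 83 genes drawn and ordered by log2 fold change. Of the 81 genes drawn, 55 are above their mean in VHP replicate 3, 18 in VHP replicate 1 and 20 in VHP replicate 2.

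Among 1840 other genes with a mean of 100 CPM or more, 5 followed the summed share of ribosomal protein reads most closely over the 6 libraries: SNRNP200 (Pearson r = 0.979), a spliceosome helicase, DNASE2 (0.940), RACK1 (0.938), EIF2S2 (0.932) and FARSB (0.932). RACK1 is a scaffold protein bound to the small subunit, EIF2S2 a subunit of the factor that delivers the initiator tRNA, and FARSB a subunit of phenylalanyl-tRNA synthetase. RACK1 was at 1885, 1891 and 1606 CPM in CTR and 1589, 1574 and 1904 CPM in VHP. These are the top of a long list over 6 libraries that share one scaling, and are a description only.

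Several, but not all, of the genes with the lowest estimates lay in parts of the genome where other genes also had low estimates. For each ribosomal protein gene the median log2 fold change of the other listed genes starting within 5 Mb was taken, a measure chosen, like the chromosome segments below, after the values were seen. This neighbour median lay between -0.40 and 0.31 over the 83 genes and was below -0.2 for 3 of them, RPL35A, RPL3 and RPL22L1. Around RPL35A, near the end of the long arm of chromosome 3 (chr3:197950190-197956610, hg38), 31 of 31 other genes were below 0, with a median of -0.40. Around RPL22L1, on the same arm, 13 of 17 were below 0 with a median of -0.23, and around RPL39L, between them, 28 of 41 with a median of -0.15. Chromosome 3 from 165000001 to its end held 105 other listed genes, of which 86 (81.9%) were below 0, whereas 238 of 472 (50.4%) were below 0 on the rest of that chromosome.

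RPL3 is the only ribosomal protein gene on chromosome 22, where 226 of 259 other genes (87.3%) were below 0 with a median of -0.34, the lowest among the chromosomes with listed genes. RPS6 lies on the short arm of chromosome 9, and 14 of the 15 other genes within 5 Mb were below 0, with a median of -0.18. The neighbour medians around these 5 genes remained below 0 with any 1 library left out, but their size depended on single libraries for RPL39L and RPS6. For RPL39L the neighbour median was -0.04 without CTR replicate 3 and -0.25 without CTR replicate 1. For RPS6 it was -0.10 without CTR replicate 2, -0.34 without CTR replicate 1, -0.31 without CTR replicate 3 and -0.33 without VHP replicate 3. Around RPL3 the neighbour median was 0.13, 0.17 and 0.25 in CTR and -0.26, -0.24 and -0.05 in VHP relative to each gene's mean, and the groups were also apart around RPL35A, RPL22L1 and RPS6 but not around RPL39L. The share of genes below 0 over the whole table was 5241 of 10487.

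RPL41 and RPL10, also among the lowest estimates, had neighbour medians of 0.02 and 0.03. At the other end, RPL37 on chromosome 5 had the highest neighbour median, 0.31, and RPL36A had 0.14. RPL36AL, RPS3 and RPS27L, also among the highest estimates, had neighbour medians of -0.004, 0.016 and -0.010. Over the 83 genes the change of a gene and its neighbour median were related with a Pearson r of 0.564 and a Spearman rho of 0.382. Over the 79 that remain without RPL22L1, RPL35A, RPL39L and RPL3 the values were 0.355 and 0.289. The genes left out are those on distal chromosome 3 and chromosome 22. RPS6, with a neighbour median of -0.18, was kept, so the 79 still hold a gene with low neighbours. All points share the same 6 libraries, and some share neighbours. The part of these regional values in the estimates of the ribosomal protein genes was not tested.

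**Figure D5:**
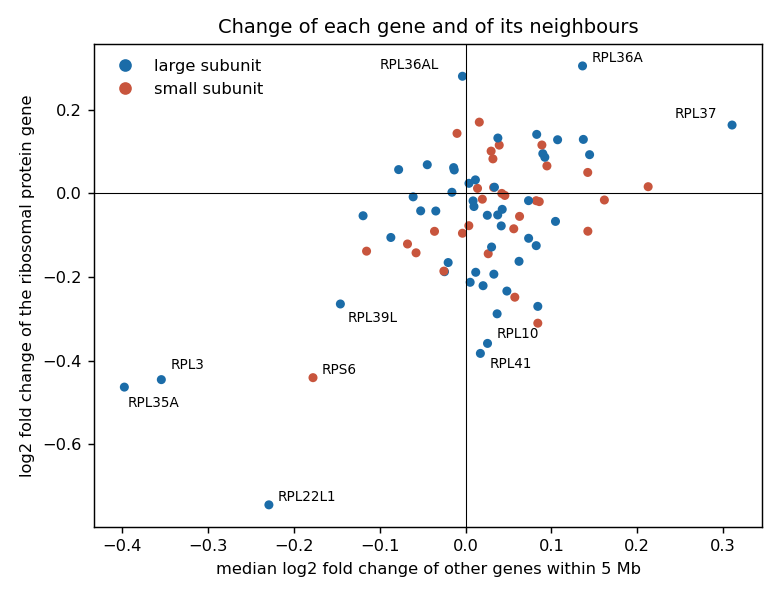
Each point is one of 81 ribosomal protein genes, with the median log2 fold change of the other listed genes within 5 Mb on the horizontal axis and its own log2 fold change on the vertical axis, coloured by subunit. RPL35A, RPL3 and RPL22L1 sit at the lower left, with neighbour medians of -0.40, -0.35 and -0.23.

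Among other genes of the ribosome and of translation, 0 passed in any of the lists that follow, with limma without or with the trend or with voom over all 10487 genes. Among 23 translation factors and other genes whose messages also begin with the tract, 18 were below 0 with a median of -0.19, and 1 of the 23 had an unadjusted p under 0.05, as 13% of all genes did. That gene was EIF3L, a subunit of initiation factor eIF3, at 291, 392 and 357 CPM in CTR and 222, 219 and 258 CPM in VHP (log2 fold change -0.56, adjusted p = 0.271 by limma). SLC25A6, the mitochondrial ADP/ATP carrier of the same list, had a log2 fold change of -0.45 (adjusted p = 0.395 by limma).

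The 27 listed initiation factors had a median of -0.04, with EIF3D at -0.53 and EIF4E, which binds the cap, at 0.48. The 65 listed ribosome biogenesis factors had a median of 0.00, with 33 above and 32 below 0. EFL1 and LSG1, GTPases of late large subunit maturation, had the smallest p-values of that list, with log2 fold changes of -0.54 and -0.40. The 12 chaperones and importins of ribosomal proteins had a median of 0.11, with 10 above 0, PDCD2, which escorts RPS2, at 0.41 and the importin KPNB1 at -0.32. The 7 listed host genes of small nucleolar RNAs had a median of -0.12, led by ZFAS1 at -0.40 and SNHG8 at -0.26.

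Of 31 listed subunits and factors of RNA polymerases I and III, which make ribosomal RNA, 15 were above and 16 below 0, with a median of -0.02. An unadjusted p under 0.05 was reached by 4 of the 31, all lower in VHP, a share near the 13% of all genes. POLR1E, a subunit of polymerase I, was at 58.4, 42.8 and 46.5 CPM in CTR and 29.2, 30.7 and 26.6 CPM in VHP, without overlap (log2 fold change -0.74, SE 0.19, adjusted p = 0.162 by limma). TAF1B, of the polymerase I initiation complex, had a log2 fold change of -0.51. Among 19 regulators of ribosomal protein genes and of the p53 response to them, the median was -0.11. MDM4, the partner of MDM2, was at 53.5, 79.8 and 60.7 CPM in CTR and 38.2, 38.7 and 42.7 CPM in VHP, without overlap (log2 fold change -0.67, adjusted p = 0.229 by limma), and GABPA, an ETS factor, had a log2 fold change of -0.69 (adjusted p = 0.365 by limma).

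The proteins of the mitochondrial ribosome, which are encoded in the nucleus and serve a separate translation machinery, had a median log2 fold change of -0.01 over 76 listed genes, with 36 above and 40 below 0. MRPL47 and MRPL2 had the smallest p-values of that list, with log2 fold changes of -0.52 and -0.42. The 13 transcripts of the mitochondrial genome had a median of 0.02.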

How the data were processed

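Total RNA of 6 cultures (3 per group) was sequenced from the 3′ end. The authors' pipeline was bbduk for trimming, STAR for alignment (hg38), HTSeq (version 0.9.1) for gene counts and edgeR for normalisation. Genes whose average exceeded 5 CPM in a condition were retained by the authors, and the deposited values are log2(CPM + 1). For the present work reads were recovered from the steps of the CPM values (100% whole within 0.05 read), and shares and totals were taken from them. Genes were named with GENCODE 44, which held 10462 of 10487 identifiers. Limma (3.58.1, R 4.3.3) compared the groups over the whole table, with no trend and no covariate, at a Benjamini-Hochberg threshold of 0.05. It was also run on simulated counts, with the same spread setting for every gene and no shift shared by genes within a library. That run cannot show how limma behaves with the shared shifts described above. Fold changes are on the log2(CPM + 1) scale.

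The ribosomal protein genes, the gene lists and the tests were chosen with earlier results of these data known. Named were the 8 most abundant ribosomal protein genes, the 6 lowest and the 6 highest estimates, the copies and their relatives, 9 genes of known roles, and the 2 smallest p-values of each further list, and others were chosen after their values were seen. Some of the genes that this rule names are not reported here. Promoter sequences are from RefSeq (GRCh38.p14). Alternatives were other scalings, pseudocounts and filters, a trend, voom, library weights, a replicate block and each library left out.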

Additional observations from a re-analysis of the deposited data

How the results depend on the processing

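The count of ribosomal protein genes past the threshold was 0 as reported and in all 17 other limma fits. In those fits 1 to 6 of the 83 (1.2% to 7.23%) had an unadjusted p under 0.05, against 9.1% to 14.3% of all genes. EdgeR, with which the authors called many more genes, was not among the alternatives. The median log2 fold change of the 83 genes ran from -0.11 to -0.01 with 1 library left out and was -0.02 under upper quartile scaling, where the median of all genes was 0.02. The difference in the share of reads ran from -0.777 to 0.111 percentage points with 1 library left out, from -0.417 to -0.0159 for the large subunit and from -0.362 to 0.218 for the small subunit, all within 1 SD of the reported values. Same-numbered CTR and VHP libraries did not all deviate together (correlations of 0.172, -0.064 and 0.0842). These are deviations from group means of 3 libraries, too few to decide whether the numbers pair the libraries. With the replicate block the count stayed 0, the median was -0.04 and the mean of the 3 same-numbered differences in share was -0.224 points (SD 1.59).

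Of the 34 ribosomal protein genes named by rule, 17 changed sign when 1 library was left out, none of them with a change past the threshold: RPL11 (-0.062 to 0.114), RPL22 (-0.211 to 0.0794), RPL23 (-0.191 to 0.162), RPL26 (-0.0114 to 0.233), RPL27A (-0.0059 to 0.112), RPL39 (-0.0384 to 0.24), RPL5 (-0.0743 to 0.0353), RPL7L1 (-0.0724 to 0.274), RPLP0 (-0.157 to 0.00579), RPLP1 (-0.0592 to 0.039), RPLP2 (-0.0477 to 0.00292), RPS12 (-0.113 to 0.0613), RPS19 (-0.118 to 0.0627), RPS24 (-0.0221 to 0.139), RPS27A (-0.0595 to 0.0681), RPS27L (-0.133 to 0.361) and RPS4X (-0.0306 to 0.24). Upper quartile scaling gave 0.00642 for RPL5, 0.0155 for RPLP1, 0.00579 for RPLP2, 0.00413 for RPS12 and 0.00797 for RPS19. Library weights gave -0.0127 for RPL11, -0.00674 for RPL23, 0.0149 for RPLP1 and -0.0158 for RPS27A, and voom gave -0.0025 for RPL23. The neighbour medians, in alternatives chosen after the data were seen, stayed below 0 around RPL22L1, RPL35A, RPL39L, RPL3 and RPS6 with windows of 2 and 10 Mb. With 10 Mb they were -0.288 around RPL39L and -0.297 around RPS6. The other 17 named genes kept their sign in every fit. No direction can be given for the genes that changed sign, and the cause was not tested.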

Other observations

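Several translation genes outside the ribosomal proteins also lay where their neighbours had low estimates, by the same measure chosen after the values were seen. EIF3L and EIF3D are both on chromosome 22, and 76 of 92 and 66 of 79 other genes within 5 Mb of them were below 0. LSG1 lies on distal chromosome 3 with 33 of 35 such genes below 0, and MRPL47 on the same arm with 26 of 35. GABPA, on chromosome 21, had 11 of 13, and chromosome 21 as a whole had 77 of 108 other genes below 0. POLR1E, on chromosome 9, had 44 of 61, and SLC25A6 had 9 of 13. In contrast, MDM4 had 31 of 61, TAF1B 16 of 30, EFL1 16 of 37, MRPL2 23 of 61 and KPNB1 39 of 92. The genes given here were picked after the values were seen.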
